A study of Mus musculus with 6 samples.

Results

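Injury-associated transitional epithelial genes are the transcripts that mark the Krt8-high cells through which alveolar epithelium passes after injury. The 10 genes described here, Krt8, Krt18, Krt7, Krt19, Cldn4, Sfn, Areg, Hbegf, Lgals3 and Clu, were chosen by name for that state, and each was found by its symbol among the 31130 genes counted. They were measured in lung tumor tissue of female C57BL/6 mice aged 6 to 8 weeks, with 3 tumors from LC mice and 3 from IP + LC mice. All 6 mice were wild type and received EGFP-labelled LLC (Lewis lung carcinoma) cells, which come from a mouse lung cancer, through the pleura into the left lung on day 14, mixed with basement membrane extract. The IP + LC mice had received bleomycin, a drug that injures the alveoli and causes interstitial pneumonia (IP), by oropharyngeal aspiration at 2.0 mg/kg in saline on day 0, whereas the LC mice had saline. Tumor tissue was taken on day 21, and it held carcinoma cells together with whatever lung and immune cells lay in or around the tumor. The comparison asks whether transcripts of the injury state differed between tumors that grew in bleomycin-injured lung and tumors that grew without it.

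After alveolar injury, type 2 cells, the surfactant-producing progenitors of the alveolus, can pass through a spread-out, stressed, keratin-rich state before they become flat type 1 cells. Keratins are built as pairs of a type II chain, such as Krt8 or Krt7, and a type I chain, such as Krt18 or Krt19, which polymerize into the filaments that give epithelial cells their mechanical strength. The state is also known for the tight junction protein Cldn4, the cell cycle brake Sfn, and the ligands Areg and Hbegf, which are shed from the cell surface and activate the EGF receptor. None of the 10 genes belongs to that state alone, because simple epithelia, mesothelium and many carcinomas carry these keratins, and macrophages and lymphocytes can make Lgals3 and Areg.

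The libraries held 592733, 1379759 and 1356381 unique molecular identifiers (UMIs, each standing for 1 captured transcript) in LC replicates 1, 2 and 3, and 1344042, 1631066 and 1336919 in the IP + LC replicates. LC replicate 1 was the shallowest library and stood apart. Its correlation across genes with the other LC tumors was 0.840 and 0.799 (Pearson's r on log2(CPM + 4), with CPM the UMIs per 1000000 UMIs of a library), while LC replicates 2 and 3 had 0.962 and the IP + LC tumors 0.968 to 0.973 among each other. In LC replicate 1 the summed level of 8 macrophage markers was 2338 CPM against 858 and 620.3 in the other LC tumors, and that of 6 markers of dividing cells was 482 against 118 and 114. The tests of the 10 genes are therefore given with and without this tumor, and for any other gene named, the value without it is given where its call differs. The labels call the tissue tumor and its cell type lung cancer cells, but markers of normal type 1, type 2 and airway epithelium were present in every tumor, and no gene of these lists was at 0 in all of them.

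Of the 10 genes, 4 keratins, Cldn4 and Sfn are structural or regulatory proteins inside epithelial cells, and Krt7, Krt8 and Krt18 lie in the type II keratin cluster of chromosome 15, where Krt18 is the type I chain that neighbours Krt8. On GRCm38 with GENCODE M21, Krt8 is at chr15:101996698-102004482 on the minus strand and Krt18 at chr15:102028180-102032027 on the plus strand, so that the pair is transcribed head to head with 23698 bases between the starts. Areg is at chr5:91139599-91148432 on the plus strand. Krt7 is at chr15:101411043-101430313, Krt19 at chr11:100140810-100148665, Cldn4 at chr5:134945119-134946934, Sfn at chr4:133600556-133602168, Lgals3 at chr14:47367751-47386160 and Clu at chr14:65968483-65981547, and all are annotated as protein-coding. The promoters of these 3 genes are shown because Areg was the gene that rose, and because Krt18, which fell, neighbours its filament partner Krt8. Each runs from 250 bases before to 50 bases after the start in RefSeq (GRCm38.p6), 5′ to 3′ on the strand of the gene, and capitals mark the motifs found.
Areg (chr5:91139349-91139648, plus strand): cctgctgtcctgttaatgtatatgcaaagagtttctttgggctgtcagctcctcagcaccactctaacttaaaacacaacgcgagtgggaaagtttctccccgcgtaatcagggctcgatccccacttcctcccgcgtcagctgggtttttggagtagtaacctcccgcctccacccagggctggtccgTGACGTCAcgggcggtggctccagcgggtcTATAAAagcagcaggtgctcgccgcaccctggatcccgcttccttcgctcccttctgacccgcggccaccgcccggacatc
Krt8 (chr15:102004293-102004592, minus strand): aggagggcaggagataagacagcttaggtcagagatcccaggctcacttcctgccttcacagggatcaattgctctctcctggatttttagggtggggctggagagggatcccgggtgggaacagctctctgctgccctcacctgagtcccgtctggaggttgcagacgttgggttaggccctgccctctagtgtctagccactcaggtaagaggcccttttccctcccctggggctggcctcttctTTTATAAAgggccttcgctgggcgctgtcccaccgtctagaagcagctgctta
Krt18 (chr15:102027966-102028265, plus strand): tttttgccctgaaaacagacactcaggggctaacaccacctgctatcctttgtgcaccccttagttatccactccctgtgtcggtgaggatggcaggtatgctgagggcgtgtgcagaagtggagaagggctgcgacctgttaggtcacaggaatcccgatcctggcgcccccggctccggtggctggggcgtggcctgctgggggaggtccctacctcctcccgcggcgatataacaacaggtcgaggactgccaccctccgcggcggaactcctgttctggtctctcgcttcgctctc
The motifs searched, on both strands, were the cAMP response element TGACGTCA, the AP-1 site TGANTCA, the TEAD site GGAATG, the TATA box TATAAA and the hypoxia response element core ACGTG. The Areg promoter held TGACGTCA at position -61 and TATAAA at position -31, and 1.79% and 13.6% of all 32851 mouse promoters of the same length held these letters. The Krt8 promoter held TATAAA at position -1 and, overlapping it on the other strand, at position -3 of the RefSeq start, which lies inside the GENCODE gene. None of the 5 motifs was found in the Krt18, Krt7, Lgals3 or Sfn promoter, and the Cldn4 promoter held TGANTCA at positions -240 and -158, a motif in 7.81% of all promoters. GGAATG was in 14.7% and ACGTG in 19.6% of all promoters and in none of the 7 read here. These matches describe the letters of the windows and not the binding of a factor.

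The 10 genes did not move in 1 direction. Of the 9 that had enough UMIs for the test, Areg was significantly higher in IP + LC, Krt18, Krt7, Krt19 and Clu were significantly lower, and Krt8, Sfn, Hbegf and Lgals3 did not pass the test (edgeR's quasi-likelihood test, adjusted p below 0.1 over the 11240 genes tested). In the same test, 16.8% of all tested genes were higher and 19.6% were lower. Without LC replicate 1, Areg, Krt8 and Lgals3 were higher and the same 4 genes were lower, against 28.3% of all genes higher and 28.7% lower. In Areg the lowest IP + LC tumor exceeded the highest LC tumor, as in 21.6% of tested genes, and in Krt18, Krt19 and Clu the highest IP + LC tumor was under the lowest LC tumor, as in 21.5%. The median log2 fold change of the 9 genes was 0.16, against 0.02 over all tested genes. In these bulk samples, fewer cells of a type and less RNA per cell cannot be told apart, nor can carcinoma cells and lung epithelium as the source of a transcript.

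**Figure D1:**
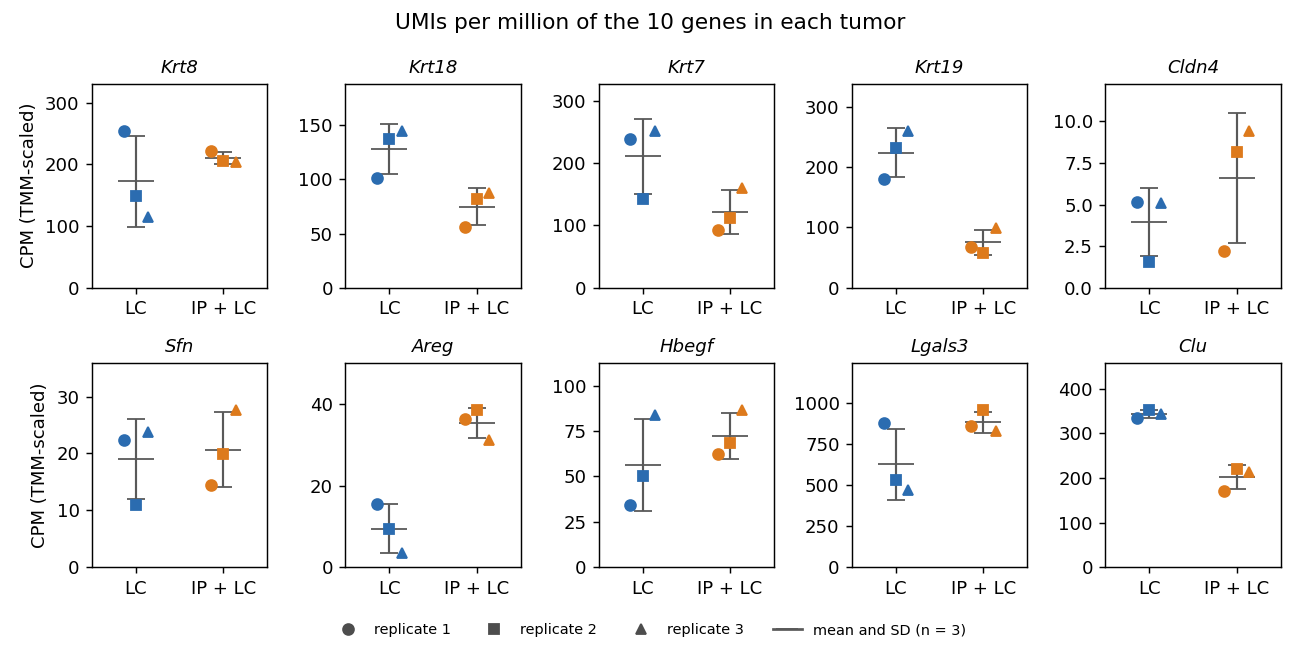
Levels of the 10 genes in each tumor, as CPM ( TMM-scaled, linear axes from 0), with replicates 1, 2 and 3 as circle, square and triangle and the mean and SD of 3 tumors as lines. The groups are apart for Areg, which is higher in IP + LC, and for Krt18, Krt19 and Clu, which are lower, and LC replicate 1 is the highest LC tumor for Krt8 and Lgals3.

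Krt8, the type II keratin that names the state, was counted at 255, 148 and 114 CPM in the 3 LC tumors and at 223, 205 and 205 CPM in the 3 IP + LC tumors. LC replicate 1 lay above every IP + LC tumor and the other LC tumors lay below all of them, so the groups overlapped. The mean was 172 ± 73.3 CPM in LC and 211 ± 10.3 CPM in IP + LC (SD, n = 3), and the CV between tumors was 42.5% in LC and 4.87% in IP + LC. The log2 fold change of 0.31 (SE 0.29) was not significant (edgeR adjusted p = 0.463). Without LC replicate 1 it was 0.69 and Krt8 was significantly higher (edgeR adjusted p = 0.00171), so that 1 tumor decided the call. Without LC replicate 3 it was 0.07 (edgeR adjusted p = 0.879). About 51.8% of the Krt8 transcript has a near-identical copy in Krt8-ps or Gm36026, but none of its last 500 nucleotides, the end from which these libraries were primed.

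Krt18, the type I partner of Krt8, was lower in the IP + LC tumors. It was counted at 102, 137 and 145 CPM in the LC tumors and at 55.8, 81.7 and 87.1 CPM in the IP + LC tumors. Every IP + LC tumor lay below every LC tumor. The mean fell from 128 ± 23.1 to 74.9 ± 16.7 CPM, with a fitted 1.72-fold decrease (edgeR log2 fold change -0.78, SE 0.24, edgeR adjusted p = 0.0409). Leaving out LC replicate 1 gave a log2 fold change of -0.90 (edgeR adjusted p = 0.000656). The call of Krt18 was lost when LC replicate 2, LC replicate 3, IP + LC replicate 1 or IP + LC replicate 2 was left out, with adjusted p-values of 0.134, 0.111, 0.176 and 0.124 and log2 fold changes from -0.82 to -0.58.

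Krt7, the type II keratin of ducts, airways and mesothelium, was counted at 238, 142 and 252 CPM in the LC tumors and at 92.8, 111 and 159.7 CPM in the IP + LC tumors. IP + LC replicate 3 lay above LC replicate 2, so the groups overlapped by 1 tumor. The mean was 210.4 ± 59.8 CPM in LC and 121 ± 34.5 CPM in IP + LC, with a fitted 1.73-fold decrease (edgeR log2 fold change -0.79, SE 0.29, edgeR adjusted p = 0.0737). Leaving out LC replicate 1 gave -0.68 (edgeR adjusted p = 0.0219). The call was lost without LC replicate 3, IP + LC replicate 1 or IP + LC replicate 2, with log2 fold changes of -0.64, -0.61 and -0.71 (edgeR adjusted p = 0.190, 0.262 and 0.240).

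Krt19, the type I keratin of simple and ductal epithelium, showed the largest decrease among the 9 tested genes. It was counted at 181, 231 and 260.2 CPM in the LC tumors and at 68.2, 57.8 and 98.8 CPM in the IP + LC tumors. The groups were well apart, with the highest IP + LC tumor below the lowest LC tumor. The mean fell from 224 ± 40.1 to 74.9 ± 21.3 CPM, with a fitted 3.01-fold decrease (edgeR log2 fold change -1.59, SE 0.26, edgeR adjusted p = 0.00336). Krt19 was called lower in every one of the 16 alternative analyses, with log2 fold changes from -1.81 to -1.41, and the value without LC replicate 1 was -1.71.

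The balance of the 4 keratins was compared between the groups by their shares of UMIs. The shares that follow were added after seeing the data and are read only between tumors, since UMIs are not scaled per transcript length. Krt8 made up 71.5% (95% Wilson interval 65.0 to 77.2), 51.9% (46.8 to 57.0) and 44.1% (38.7 to 49.7) of the UMIs of Krt8 and Krt18 in the LC tumors, and 79.9% (75.7 to 83.6), 71.5% (67.3 to 75.3) and 70.1% (65.5 to 74.4) in the IP + LC tumors. LC replicate 1 lay within the IP + LC range, and the other LC tumors lay below it. The mean share was 55.8 ± 14.1% in LC and 73.9 ± 5.31% in IP + LC, a difference of 18.02 points that did not pass an exact permutation test (two-sided p = 0.3), and 25.8 points without LC replicate 1.

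The type II chains, Krt8 and Krt7, made up 63.6%, 44.0% and 47.5% of the UMIs of all 4 keratins in the LC tumors and 71.8%, 69.4% and 66.2% in the IP + LC tumors. All 3 IP + LC tumors lay above all 3 LC tumors, with LC replicate 1 the nearest to them. The mean share was 51.7 ± 10.4% in LC and 69.1 ± 2.79% in IP + LC, and the difference of 17.4 points had a two-sided p of 0.1 by an exact permutation test, the smallest that 3 against 3 tumors can give. It ranged from 13.6 to 23.4 points when each tumor was left out in turn. The intervals in the plot of keratin shares cover counting error only.

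**Figure D2:**
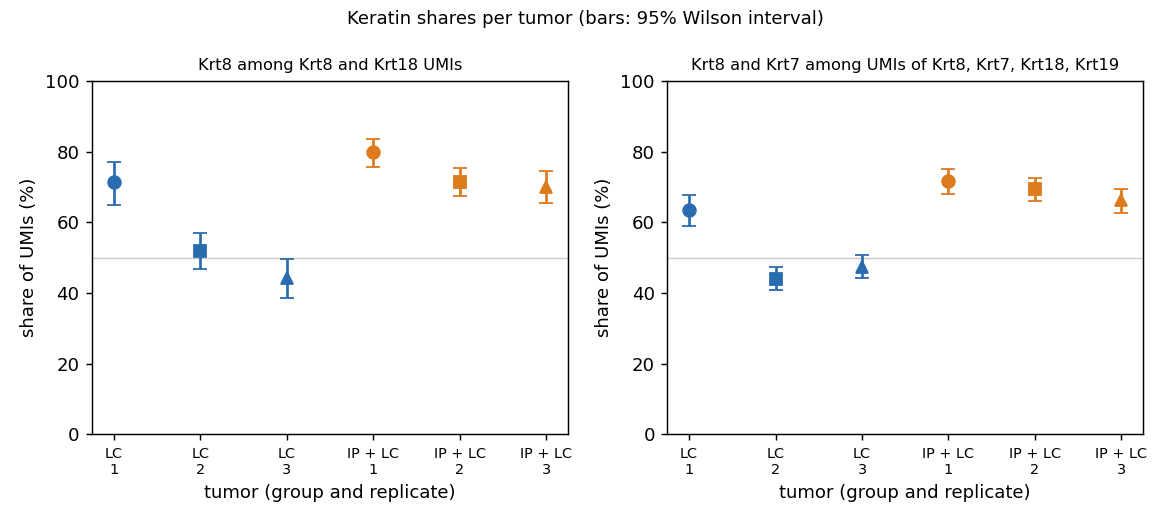
Share of UMIs in each tumor, in percent, of Krt8 among Krt8 and Krt18 (left) and of the type II chains Krt8 and Krt7 among the 4 keratins (right), with 95% Wilson intervals as bars and a thin line at an even split. In the right panel all IP + LC tumors (66.2% to 71.8%) lie above all LC tumors (44.0% to 63.6%), and in the left panel LC replicate 1 (71.5%) lies among the IP + LC tumors.

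These keratins were set against 8 general epithelial genes (Epcam, Cdh1, Spint2, Esrp1, Esrp2, Grhl2, Elf3 and Ehf), a ratio of UMIs in which library size cancels. The UMIs of Krt8 and Krt18 together were 1.25, 0.509 and 0.442 times those of the epithelial genes in the LC tumors and 1.59, 1.76 and 1.36 times in the IP + LC tumors. Every IP + LC tumor lay above every LC tumor, by little for LC replicate 1. The mean log2 ratio was 1.25 higher in IP + LC, a 2.38-fold difference (exact permutation test, two-sided p = 0.1, the smallest possible), and 1.72 higher without LC replicate 1. The keratin pair had 207, 364 and 306 UMIs in LC and 384, 491 and 402 in IP + LC. The epithelial genes had 165, 715 and 692 UMIs in LC and 242, 279 and 295 in IP + LC. Since Krt8 did not pass the test and Krt18 was lower, the higher ratio does not show a rise of these keratins. Ratios of single keratins to the epithelial genes were added after seeing the data. In log2 units the ratio was 1.68 higher in IP + LC for Krt8 (exact permutation p = 0.1), 0.53 higher for Krt18 (p = 0.2, exact), 0.52 higher for Krt7 (p = 0.4, exact) and 0.29 lower for Krt19 (difference -0.29, exact permutation p = 0.3). Without LC replicate 1 these differences were 2.34, 0.71, 0.97 and -0.10. None of these ratios and shares could reach a p below 0.1 with 3 tumors a group.

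The epithelial genes themselves fell. Of the 7 tested, 6 were lower and none was higher (3 lower without IP + LC replicate 2, 4 without LC replicate 2 or IP + LC replicate 1, and 2 after thinning all libraries to the depth of the smallest), with a median log2 fold change of -1.48, and their summed level was 284 to 586 CPM in LC and 163 to 214 CPM in IP + LC. Among them, Spint2, an inhibitor of cell surface proteases, had a log2 fold change of -1.73 (edgeR adjusted p = 0.00374), the adhesion protein Cdh1 -0.94 (0.0344) and Epcam -1.39 (0.0171). The largest decreases of the list were those of the epithelial transcription factors Grhl2 (-2.01, edgeR adjusted p = 0.0155) and Ehf (-1.75, 0.0207). Markers of normal lung epithelium fell as well: 7 of 8 type 1 genes, 7 of 8 type 2 genes and 8 of 8 airway genes were lower, with medians of -1.48, -1.92 and -3.14. Their summed levels were 2754 to 5329, 36134 to 45435 and 49910 to 58775 CPM in LC and 1074 to 1493, 6503 to 11851 and 3431 to 7340 CPM in IP + LC. Mesothelial genes, from a lining that also makes Krt7, Krt8, Krt18 and Krt19, were lower in 4 of 4 tested (2 without LC replicate 2 or IP + LC replicate 2), with sums of 131 to 266 CPM in LC and 52.5 to 70.4 CPM in IP + LC. No gene of these lists was at 0 in all tumors, and the part of these cell types in the decreases of Krt18, Krt7, Krt19 and Clu was not tested.

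Of 10 keratins outside the state, only 4 had enough UMIs to be tested, and all 4 were lower: Krt80 (log2 fold change -1.78), Krt23 (-2.08), Krt79 (-3.63) and, named after its value was seen, Krt15 (-1.81). Their edgeR adjusted p-values ran from 0.00130 to 0.0148, and they were also lower without LC replicate 1. In the IP + LC tumors, Krt15 had 9, 5 and 3 UMIs, Krt23 had 10, 5 and 10, and Krt79 had 7, 0 and 1. These genes passed the filter on low counts through the LC tumors, where they were high. Their shared direction is therefore partly set by the filter. With at least 10 UMIs required in every library, the number lower was 1. Among the 8 keratins tested under this limit, Krt8, which did not pass the test, was the only 1 with a positive log2 fold change.

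Cldn4, a claudin of the tight junction that rises in injured alveolar epithelium, was at the edge of detection. It had 3, 2 and 6 UMIs in the LC tumors and 3, 14 and 13 UMIs in the IP + LC tumors, or 3.94 ± 2.05 and 6.60 ± 3.88 CPM. The 2 highest tumors belonged to IP + LC and the groups overlapped. It did not pass the filter on low counts, and in a fit of 29423 genes without the filter its log2 fold change was 0.94 (SE 0.68, edgeR adjusted p = 0.443), so a change was not detectable at this depth. Of 10 other tested genes of tight junctions, 7 were lower and none was higher, with a median of -0.82. That count was 9 without LC replicate 1, 3 when IP + LC replicate 2 was left out, and 4 when LC replicate 3 or IP + LC replicate 1 was. Cldn5, a claudin of blood vessels, and Cldn10 had the largest decreases among the called genes (log2 fold changes -2.26 and -2.61, edgeR adjusted p = 0.000909 and 0.00120), F11r, a junctional adhesion molecule, had -0.78 (0.0210), and Cldn18, the claudin of alveolar cells, had -0.82 and did not pass the test (0.150), but was lower without LC replicate 1 (-1.11, edgeR adjusted p = 0.000803).

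Sfn, which encodes 14-3-3 sigma, a p53-induced brake on the cell cycle in epithelium, did not change detectably. It was counted at 22.4, 10.97 and 23.7 CPM in the LC tumors and at 14.5, 19.8 and 27.6 CPM in the IP + LC tumors, from 13 to 38 UMIs. The tumors of both groups were interleaved. The means were 19.03 ± 7.01 and 20.6 ± 6.58 CPM, with a log2 fold change of 0.16 (SE 0.37, edgeR adjusted p = 0.783) and of 0.27 without LC replicate 1. Near-identical copies cover 44.1% of the Sfn transcript in the pseudogene Gm7850, and none of the last 500 nucleotides. Of the other 6 genes of the 14-3-3 family, which bind phosphorylated proteins in all cell types, 4 were higher and none was lower: Ywhag (log2 fold change 1.54), Ywhaz (0.69), Ywhae (0.51) and, named after its value was seen, Ywhah (0.49). Their edgeR adjusted p-values were 0.00143, 0.0738, 0.0901 and 0.0932, and Ywhab had 0.26 (0.372). Most of these calls depended on single tumors, since the number higher was 2 without LC replicate 2 and 1 without LC replicate 3 or without any of the IP + LC tumors, and at a threshold of 0.05 it was 1. Without LC replicate 1, 4 were higher and Ywhaq, named after its value was seen, was lower (-0.31, edgeR adjusted p = 0.0845).

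Areg, the EGF receptor ligand amphiregulin, was the only gene of the 10 to rise significantly in the IP + LC tumors. It was counted at 15.5, 9.40 and 3.39 CPM in the LC tumors, from 9, 12 and 4 UMIs, and at 36.3, 38.5 and 31.2 CPM in the IP + LC tumors, from 50, 66 and 43 UMIs. The lowest IP + LC tumor was above the highest LC tumor, which was LC replicate 1. The mean rose from 9.43 ± 6.05 to 35.3 ± 3.74 CPM, with a fitted 4.15-fold increase (edgeR log2 fold change 2.05, SE 0.39, edgeR adjusted p = 0.00644). Leaving out LC replicate 1 gave a log2 fold change of 2.44 (edgeR adjusted p = 5.085e-05). Areg kept its call in all 15 alternative analyses that tested it, with log2 fold changes from 1.59 to 2.44. It passed the filter on low counts through the IP + LC tumors, where it was high.

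Leukocytes that are known to make Areg were looked for by 7 markers of regulatory T cells, type 2 innate lymphoid cells, mast cells and basophils. Only 2 of the 7 had enough UMIs to be tested, neither was called with all tumors (Gata3, named after its value was seen, was lower without LC replicate 1, log2 fold change -0.74, edgeR adjusted p = 0.0529), and the summed level was 27.6 to 73.7 CPM in LC and 30.5 to 49.6 CPM in IP + LC, with no marker at 0 in all tumors. Of 8 markers of macrophages, 4 were higher and none lower (median log2 fold change 0.93). The number higher was 7 without LC replicate 1 and 1 without any other single tumor, with upper quartile scaling or at a threshold of 0.05. Their summed level was 620.3 to 2338 CPM in LC and 2346 to 2954 CPM in IP + LC. Of 6 markers of dividing cells, 5 were higher (6 without LC replicate 1, and 3 without any other single tumor), with sums of 114 to 482 CPM in LC and 979 to 1153 CPM in IP + LC. The part of either in the increase of Areg was not tested.

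Hbegf, the heparin-binding EGF-like ligand of the same receptor, was counted at 34.4, 50.1 and 83.9 CPM in the LC tumors and at 62.4, 68.3 and 86.4 CPM in the IP + LC tumors. LC replicate 3 lay within the IP + LC range and the groups overlapped. The means were 56.2 ± 25.3 and 72.4 ± 12.5 CPM, with a log2 fold change of 0.33 (SE 0.31, edgeR adjusted p = 0.460) and of 0.13 without LC replicate 1. Leaving out LC replicate 3 gave 0.72 (edgeR adjusted p = 0.108). Hbegf did not pass the test in any of its 16 alternative analyses.

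Around the 2 ligands, 14 of 19 other genes of the EGF receptor pathway could be tested, of which 4 were higher and 1 was lower, with a median log2 fold change of 0.37. Over all tested genes, 16.8% were higher and 19.6% were lower. Ereg, the ligand epiregulin, a relative of Areg, had 2, 1 and 5 UMIs in the LC tumors and 16, 28 and 17 UMIs in the IP + LC tumors. All IP + LC tumors were above all LC tumors, with a log2 fold change of 2.31 (edgeR adjusted p = 0.0105). Ereg passed the filter on low counts only through the IP + LC tumors, where it was high. The size of its change therefore rests on few UMIs in LC. Adam17, the protease that sheds Areg and Hbegf, had 44.8, 31.3 and 38.1 CPM in LC and 72.5, 77.6 and 76.2 CPM in IP + LC, again with no overlap (log2 fold change 1.01, edgeR adjusted p = 0.00864). Dusp6, a phosphatase induced by ERK signaling downstream of the receptor, was higher as well (0.65, edgeR adjusted p = 0.0407), while the feedback inhibitor Errfi1 (-0.43, 0.160) and the protease Adam10 (0.50, 0.106) did not pass the test. Both passed it without LC replicate 1, Errfi1 as lower (-0.50, edgeR adjusted p = 0.0152) and Adam10 as higher (0.42, edgeR adjusted p = 0.0358). Rhbdf2, a cofactor of Adam17, was the fourth gene that rose (0.86, 0.0991) and Egfr, the receptor, was the gene that fell (-0.99, 0.0983), and both are named after their values were seen. Their adjusted p-values were close to the threshold and their groups overlapped. Without LC replicate 1, 7 of the 14 were higher and 4 were lower, against 28.3% and 28.7% of all tested genes. The number higher was 2 without IP + LC replicate 2 or with at least 10 UMIs required in every library. After thinning to the smallest library it was 1. Without any single tumor other than LC replicate 1, or with DESeq2 or the replicate block, none was lower.

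Lgals3, galectin-3, a lectin of macrophages and of injured epithelium, was counted at 873, 532 and 470.3 CPM in the LC tumors and at 857, 954 and 827 CPM in the IP + LC tumors. LC replicate 1 lay inside the IP + LC range and the other LC tumors lay below it. The means were 625 ± 217 and 879 ± 66.2 CPM, with a log2 fold change of 0.50 (SE 0.26) that was not significant (edgeR adjusted p = 0.194). Without LC replicate 1 it was 0.82 and Lgals3 was significantly higher (edgeR adjusted p = 0.000169). The summed level of the macrophage markers was 2338, 858 and 620.3 CPM in LC replicates 1, 2 and 3, the same order as Lgals3. In IP + LC replicates 1, 2 and 3 it was 2346, 2954 and 2661 CPM, which is not the order of Lgals3. The markers of dividing cells, at 482, 118 and 114 CPM, had the LC order of Lgals3 too. The part of either in the level of Lgals3 was not tested. Markers of alveolar macrophages were lower in 6 of 6 (3 with at least 10 UMIs required in every library). Their sums were 1417 to 1700 CPM in LC and 173 to 377 CPM in IP + LC. Among other galectin genes, Lgals3bp, a secreted binding partner of galectin-3, was the 1 of 4 tested that was higher (log2 fold change 0.83, edgeR adjusted p = 0.0263), while all 4 were higher without LC replicate 1 and 0 without IP + LC replicate 2. Lgals1 had 0.60 and did not pass the test (0.447), against 1.74 without LC replicate 1 (edgeR adjusted p = 1.012e-06), and Lgals9 had 0.14 (0.760), against 0.45 without LC replicate 1 (0.0515).

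Clu, clusterin, a secreted chaperone induced by stress, was the most even of the 10 genes within the LC group. It was counted at 334, 352 and 343 CPM in the LC tumors and at 170.4, 221 and 213 CPM in the IP + LC tumors. LC replicate 1 did not stand apart here, and every IP + LC tumor lay below every LC tumor. The mean fell from 343 ± 8.86 to 202 ± 27.2 CPM, with a fitted 1.70-fold decrease (edgeR log2 fold change -0.77, SE 0.19, edgeR adjusted p = 0.0199). The log2 fold change was again -0.77 when LC replicate 1 was left out (edgeR adjusted p = 0.000398). Without IP + LC replicate 1, the tumor with the lowest level, it was -0.64 and the call was lost (edgeR adjusted p = 0.110).

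**Figure D3:**
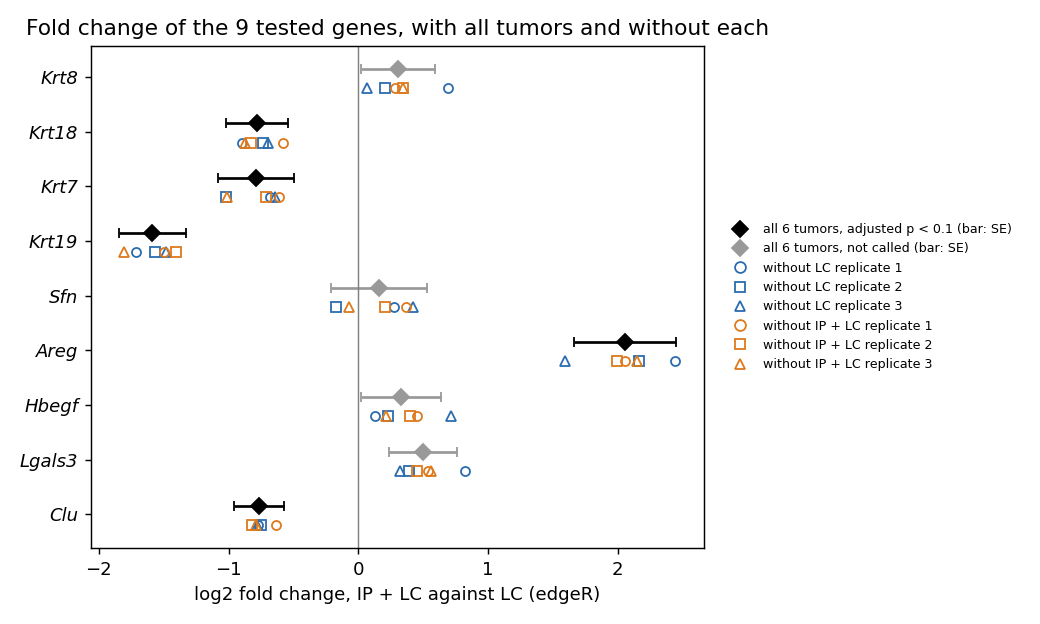
Log2 fold change (IP + LC against LC, edgeR) of the 9 tested genes with all 6 tumors, as diamonds with the SE as bars (black where the adjusted p was below 0.1, grey otherwise), and with each tumor left out, as open symbols. Areg (2.05) and Krt19 (-1.59) stay far from 0 without any tumor, Krt8 moves from 0.31 to 0.69 and Lgals3 from 0.50 to 0.82 without LC replicate 1, and Sfn crosses 0.

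The members were set beside 20 other genes reported of the transitional state, all of which could be tested. Of these, 7 were higher and 4 were lower, with a median log2 fold change of 0.60. Over all tested genes, 16.8% were higher and 19.6% were lower. Without LC replicate 1 the counts of the list were 12 and 4, against 28.3% and 28.7% of all tested genes. The counts were 4 and 2 without LC replicate 2 and again without IP + LC replicate 2. With at least 10 UMIs required in every library, 4 were higher and 4 were lower. Fosl1, an AP-1 subunit, and Gdf15, a stress-induced cytokine, had the largest changes of the called genes (log2 fold changes 3.34 and 2.85, edgeR adjusted p = 0.00395 and 0.00258, and 4.39 and 3.41 without LC replicate 1). Fosl1 had 17.2, 3.13 and 2.54 CPM in LC and 68.2, 77.0 and 35.6 CPM in IP + LC, with LC replicate 1 the highest of its group. The LC tumors held 10, 4 and 3 UMIs of Fosl1 and 4, 2 and 3 UMIs of Gdf15. Both genes passed the filter on low counts through the IP + LC tumors, where they were high. The size of their changes therefore rests on few UMIs in LC. Fn1, the matrix protein fibronectin, which fibroblasts and macrophages also make, was higher (1.06, 0.0339), and Tm4sf1, a tetraspanin-like surface protein, was lower (-1.20, 0.00351). The calcium-binding protein S100a6 had 1892, 645 and 665 CPM in LC and 1312, 1317 and 1159 CPM in IP + LC, so LC replicate 1 was above all other tumors, and it was called without that tumor and not with it (log2 fold change 0.25, edgeR adjusted p = 0.683, against 0.96). The other genes that rose, named after their values were seen, were the cyclin Ccnd1 (2.84, edgeR adjusted p = 0.000565), the urokinase receptor Plaur (1.06), the TWEAK receptor Tnfrsf12a (1.11) and the NF-kB pathway gene Tnip3 (1.22). The other genes that fell, also named after their values were seen, were the stress-response gene Nupr1 (-1.39), the vasoconstrictor Edn1 (-1.41) and the YAP target Ccn2 (-0.69). Markers of endothelium were lower in 6 of 6. The part of other cell types in the increases and decreases of this list was not tested. The wider list thus held increases and decreases side by side, as did the 10 genes. Its number lower, 4 of 20, was near the share over all tested genes (19.6%).

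**Figure D4:**
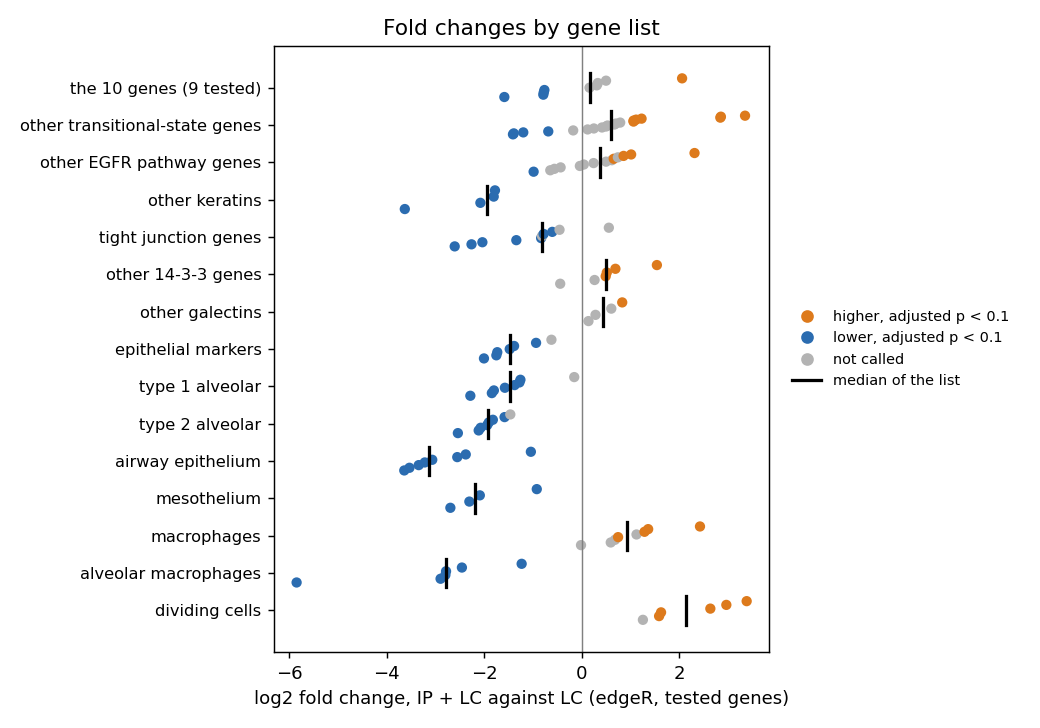
Log2 fold change (IP + LC against LC, edgeR) of each tested gene by list, orange where higher and blue where lower at an adjusted p below 0.1, grey where not called, with the median of the list as a black line. The 10 genes (median 0.16) spread to both sides of 0, while the lists of general epithelial (median -1.48), alveolar and airway genes lie below 0 and that of dividing cells (2.13) above it.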

How the data were processed

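RNA of tumor tissue from 3 LC and 3 IP + LC mice was sequenced after bulk RNA barcoding, which tags the 3′ end of transcripts with a barcode and a UMI of 10 nucleotides. The authors extracted UMIs with UMI-tools 1.1.1, trimmed the 81-nucleotide reads with Trim Galore 0.6.7, aligned them to GRCm38 with HISAT2 2.2.1, assigned them with featureCounts 2.0.1 and deposited counts of distinct UMIs per gene, not normalized. UMIs differing by a sequencing error were not merged, and annotation release and strand setting are not given in the sources used here. Without strand, reads of Krt8 and of Gm36026, which overlaps 5.16% of its exonic bases on the other strand, cannot be told apart, nor those of Krt7 and Gm671 (1.09%).

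The counts were fitted in R 4.3.3 with edgeR 4.0.16 (quasi-likelihood test, TMM factors 0.905 to 1.07, filterByExpr with a minimum count of 10 and total of 15, Benjamini-Hochberg adjustment, threshold 0.1 as the study states for DEGs, no block), after a test on simulated data. Of 31130 genes, 11240 were tested. Nothing says more of the replicates than that they are 3 tumors a group, and p-values measure the spread between these. CPM values are TMM-scaled with SD. Ratios were compared by exact two-sided permutation tests over tumors. Alternatives were other scalings, filters and tests (DESeq2 1.42.0, limma 3.58.1), a replicate block, thinning to 592733 UMIs and leaving out each tumor. Loci came from GENCODE M21, which held all 31130 identifiers, and promoters from RefSeq, matched for 7 of the genes. Copies were searched with blastn 2.17.0+ (at least 81 nucleotides, 95% identity). All 10 genes were named, and of the other lists up to 3 genes with the highest mean CPM and up to 2 called genes with the largest change. The lists of lung, immune, stromal and dividing cells are given by counts and summed levels, without naming genes by this rule. The members and lists were chosen with earlier results of these data known. Markers of endothelium (6 of 6 lower), fibroblasts (2 higher and 4 lower of 6, with 1 higher if LC replicate 3 or IP + LC replicate 2 was left out) and neutrophils (3 of 6 lower) were also counted.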

Additional observations from a re-analysis of the deposited data

How the results depend on the processing

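Areg kept its increase and Krt19 its decrease in every alternative that tested them, and Hbegf passed the test in none. Of the 10 genes, the number higher was 1 with all tumors, 0 when at least 10 UMIs were required in every library, a filter that removes Areg, 3 with limma voom and quality weights, and 1 to 3 when each tumor was left out, with 3 without LC replicate 1. The number lower was 4, and 1 to 4 when each tumor was left out, with 1 without IP + LC replicate 1 and 2 without LC replicate 3 or IP + LC replicate 2. Krt7 also lost its call with scaling by library size only (adjusted p = 0.131) and at a threshold of 0.05. The log2 fold change of Sfn ran from -0.17 to 0.42 when each tumor was left out, with values below 0 if LC replicate 2 (-0.17) or IP + LC replicate 3 (-0.075) was missing. The log2 ratio of Krt8 and Krt18 to epithelial genes, 1.25 higher in IP + LC, was 1.52 higher against type 1 genes, 2.11 higher against type 2 genes and 0.97 to 1.72 higher when each tumor was left out. With the replicate number as a block, 1 gene was higher and 4 were lower, as without it. Deviations of same-numbered tumors correlated at 0.026, -0.12 and 0.11 across genes, so the numbers were not taken as pairs.

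Over all genes, 1885 were higher and 2203 lower, against 3324 and 3367 without LC replicate 1, 897 and 1368 without IP + LC replicate 2, 1016 and 1569 without LC replicate 2, 1088 and 1572 without IP + LC replicate 1, 1054 and 1359 after thinning, 3180 and 3053 with quality weights, and 2520 and 1800 with library size only, which moved the median log2 fold change from 0.02 to 0.18. After thinning, the number higher was 1 for 14-3-3 genes (4 before), 2 for macrophage markers (4 before) and 3 for markers of dividing cells (5 before), and the number of mesothelial genes lower was 2 (4 before). Depth limits Cldn4 most, with at most 14 UMIs in a tumor, and then Areg in LC, with 4 to 12 UMIs. Causes of these shifts were not tested.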
